A study of Mus musculus with 8 samples.

Results

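Messenger RNA of the embryonic head was compared between Gcnf-/- and wild-type mouse embryos at E9.25, a stage with 9 to 11 somites. Gcnf (germ cell nuclear factor) is the product of Nr6a1, a nuclear receptor without a known ligand, and the label Gcnf-/- marks homozygous mutants. Which part of the gene they lack is unknown here. The comparison uses 4 of the 8 libraries of the study: mutant libraries 159 and 163 and wild-type libraries 153 and 156, each made from the anterior piece of an embryo, that is the first pharyngeal arch and the tissue in front of it. The other 4 libraries are the posterior pieces that carry the same numbers, from the second arch backwards, and they enter only where the difference between regions is tested. Levels are given as TPM, the share of a gene among all transcripts after correction for gene length, so that every library sums to the same total. Of 55421 gene identifiers, 15447 reached at least 1 TPM in at least 2 of the 4 anterior libraries and were tested, 495 of them through the mutant libraries alone and 190 through the wild-type libraries alone. For these 495 and 190 genes the filter itself fixed which genotype was higher.

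Gcnf is known as a repressor that shuts down pluripotency genes, Pou5f1 first among them, when cells of the embryo begin to differentiate, and embryos that lack it die in mid-gestation with an open neural tube and a shortened trunk. The head at this stage consists of a neural tube that is being divided into forebrain, midbrain and hindbrain by signals from its edges, of surface ectoderm with sensory placodes, of neural crest cells that fill the first arch, and of head mesoderm, pharyngeal endoderm, vessels and circulating primitive red cells. In such bulk pieces, fewer cells of a type and less RNA per cell cannot be told apart. Values are given below for mutant libraries 159 and 163 in that order, then for wild-type libraries 153 and 156. Differences are mutant minus wild type on the scale of log2(TPM + 1), with the standard error where one is shown and 2 libraries a genotype. "Rose" and "fell" are used only where the adjusted p of limma, a linear model fitted across all genes, was under 0.05.

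Each anterior library held about the same amount of data, between 32127668 and 35275813 reads in genes as recovered from the TPM values and gene lengths. Nr6a1 itself had 239.8 and 202 against 194 and 205 TPM (difference 0.14 ± 0.10, adjusted p = 0.31), which does not check the genotype because the deleted part is unknown here. Library 159 expressed Xist and the other 3 expressed Ddx3y of the Y chromosome, so sex is unequal between the genotypes. Globin genes took 4.43% and 2.59% of all TPM in the mutant libraries against 0.426% and 1.00% in the wild type, and Mir6236, a gene that can collect ribosomal RNA reads, took 4.19% and 3.35% against 1.90% and 2.49%. Mitochondrially encoded transcripts went the other way, at 1.76% and 1.21% against 3.71% and 2.05%. Since TPM is relative to the total, globin and Mir6236 lower all other values in the mutant libraries, and the mitochondrial share offsets part of this. Counts with these classes removed from the total are given beside the overall count. Tissue at the edge of the cut also differed between libraries. Summed over 8 heart markers the level was 438 and 138 against 167 and 43.4 TPM, over 8 visceral endoderm markers it was 12.1 and 18.9 against 145 and 18.7 TPM, and over 6 hindbrain and second arch markers it was 19.4 and 38.6 against 29.5 and 11.7 TPM. In none of these 3 lists did a marker pass the test, and their part in the results below was not tested. Forebrain markers (all 6 above 1 TPM in every library) and first arch markers (5 of 6) were present as the tissue label says, and macrophage markers were near 0, with 3 of 6 at 0 throughout. Whether the libraries within a group were taken from different embryos is not said in the labels, and p-values then measure only the spread between these libraries.

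Many genes differed between the genotypes, mostly by small amounts. Of the 15447 genes tested, 4562 (29.5%) passed the test, 2372 of them higher in the mutant (15.4%) and 2190 lower (14.2%). With the globin, mitochondrial and Mir6236 values removed from the total the counts were 2833 higher and 1852 lower, and with quantile normalization they were 1988 higher and 2239 lower. The median absolute difference over all genes was 0.26 on the log2 scale. In 5577 genes both mutant libraries lay above both wild-type libraries, and in 5163 both lay below. Large changes were mainly rises: among genes that differed at least 4-fold on the scale of TPM + 1, 115 rose and 22 fell, and between 2-fold and 4-fold 617 rose and 174 fell. Small changes were mainly falls, since between 1.25-fold and 1.5-fold 636 rose and 1155 fell, and below 1.25-fold 112 rose and 316 fell. The same contrast appears by level. Among the 2082 genes with a mean of at least 100 TPM, 175 rose and 725 fell with a median difference of -0.16, whereas of the 2256 genes between 2 and 5 TPM 423 rose and 89 fell with a median of 0.20. Calls were spread over the autosomes and chromosome X, from 25.4% of tested genes on chromosome 18 to 32.8% on chromosome 15, while 10 of 24 mitochondrial genes and 0 of 6 genes of chromosome Y were called. Of 274 long intergenic RNAs 47 were higher and 16 lower, and of 84 small nucleolar RNAs 2 were higher and 13 lower, both with a share called (23% and 17.9%) under that of all genes. Poly-A selection captures the latter class poorly.

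**Figure D1:**
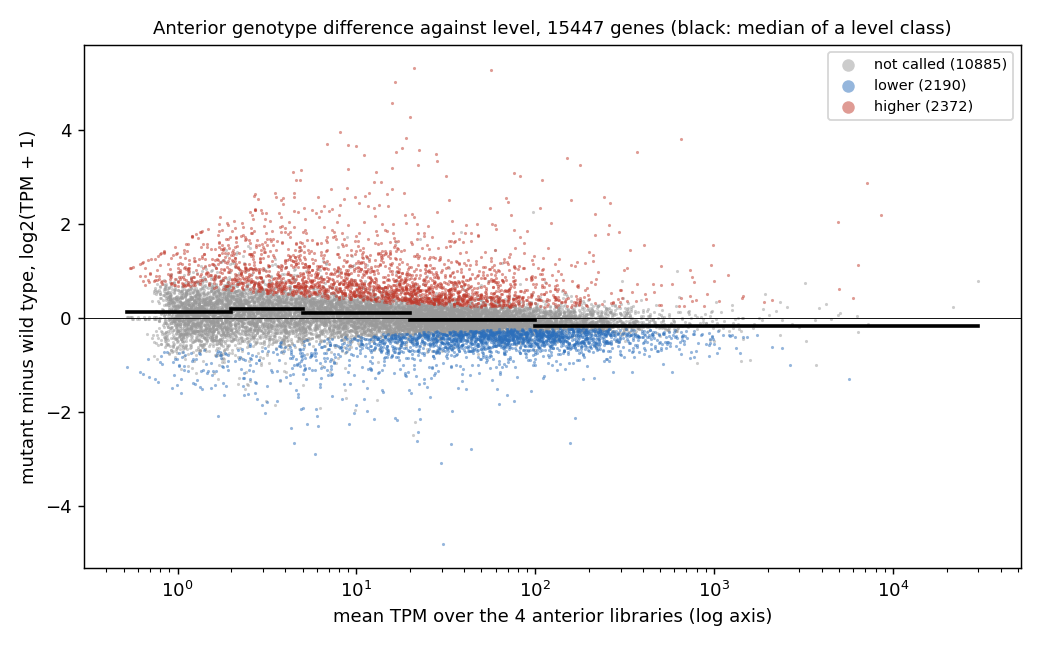
Difference between mutant and wild-type anterior pieces (vertical axis, log2 of TPM + 1) against the mean TPM of the 4 libraries (horizontal log axis) for 15447 genes, coloured by call, with black bars for the median of a level class. The medians go from 0.20 between 2 and 5 TPM to -0.16 at 100 TPM and above, and the large differences lie mostly above 0.

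The number of calls was much smaller when either wild-type library was left out. Libraries 153 and 156 lay close together (r = 0.992 across genes, against 0.989 for the mutant pair), and when either was left out the spread came from the mutant pair alone, with the lone wild-type library assumed to vary like them. Then 613 genes rose (3.97%) and 251 fell (1.62%) without library 153, and 787 rose (5.09%) and 434 fell (2.81%) without library 156. Counts of members under these settings are given in each paragraph as "without 153" and "without 156" and are to be read against those percentages. The median difference of a list, which does not depend on the spread, stands beside most counts.

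Among signals and factors of the midbrain-hindbrain boundary, falls outnumbered rises. This boundary, the isthmus, secretes Fgf8, Fgf17 and Wnt1 and instructs the midbrain and the front of the hindbrain. Of 24 genes of this region 12 fell and 2 rose, with a median of -0.51, and 1 of the 24, Pax8, passed the filter through the wild type alone. Fgf17 had 5.06 and 5.84 TPM in the mutant libraries and 36.6 and 39.9 TPM in the wild-type libraries, and Fgf8 had 20.6 and 31.05 against 55.4 and 64.6 TPM. For both ligands each mutant library was below each wild-type library, and they fell by 2.61 ± 0.11 and 1.21 ± 0.20 respectively (adjusted p = 0.0011 and 0.012). The third signal, Wnt1, differed by -0.28 and did not pass the test. Nor did Fgf18 (-0.65), Lmx1b (-0.40), Gbx2 (-0.21) and Otx2 (0.21). The paired box factors that maintain the boundary followed, with Pax8 at 0.564 and 0.684 against 11.8 and 10.3 TPM, Pax5 at 6.68 and 5.76 against 34.4 and 41.4 TPM and Pax2 at 3.72 and 3.87 against 15.4 and 16.997 TPM. En1, the engrailed factor that acts with En2 in midbrain and cerebellum, had 8.97 and 7.86 against 55.1 and 63.3 TPM and fell by 2.68 ± 0.11. Hes3, a repressor of neuronal differentiation active at the isthmus, had 26.2 and 28.3 against 95.5 and 102 TPM and fell by 1.82 ± 0.08. Genes that answer to Fgf signals were lower too. Il17rd (Sef), a feedback inhibitor, had 13.5 and 13.05 against 54.01 and 55.8 TPM, Etv5, a transcription factor, had 18.7 and 19.4 against 55.5 and 54.5 TPM, and Flrt1, a transmembrane partner of Fgf receptors, had 1.28 and 1.55 against 10.8 and 10.9 TPM. Spry2 and Spry1, feedback inhibitors, fell by 0.61 and 0.31, at 59.4 and 54.7 and 53.1 and 54.7 TPM in the mutant against 87.04 and 88.3 and 65.1 and 69.4 in the wild type. In the wider list of Fgf signalling genes 14 of 37 fell and 6 rose (median -0.31), with 1 of the 37 tested through the wild type alone. Among the rises, the receptor Fgfr2 had 67.5 and 68.9 against 32.4 and 35.3 TPM, the ligand-releasing protein Fgfbp3 had 40.7 and 39.97 against 8.78 and 10.7 TPM, and the ligand Fgf15 rose by 0.55 ± 0.08. Lower members numbered 9 and 9 for the boundary list and 6 and 6 for the Fgf list without 153 and without 156.

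**Figure D2:**
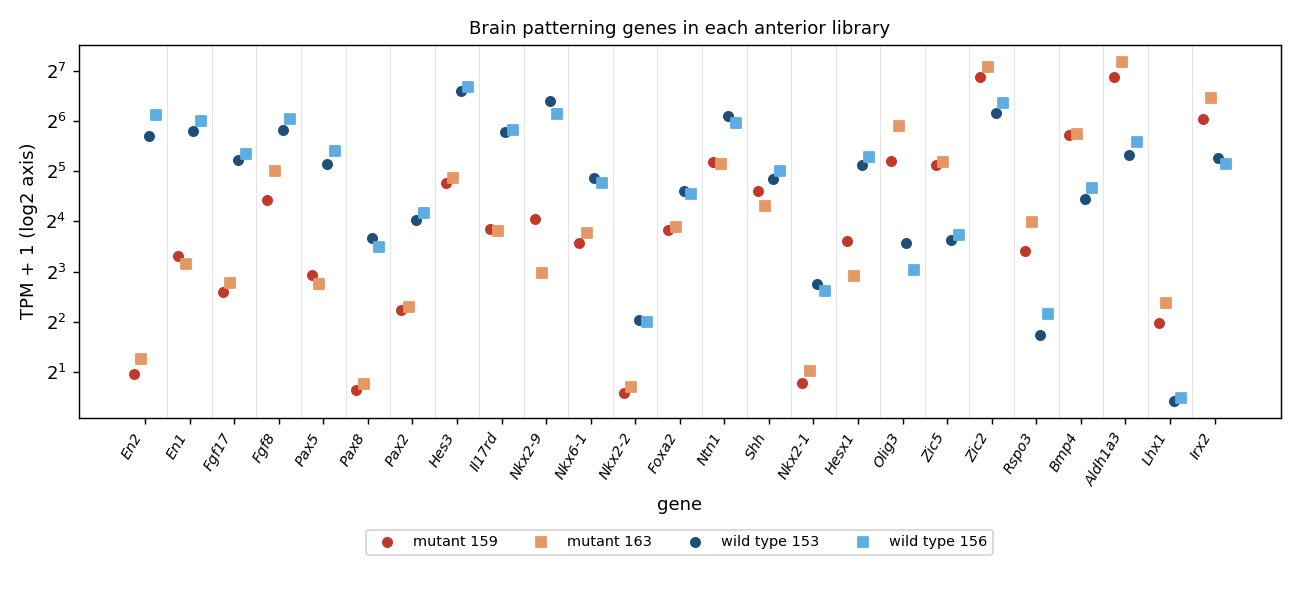
TPM + 1 (log2 axis) of 25 brain patterning genes in the 4 anterior libraries, with 1 point a library. Genes of the boundary and of the ventral tube sit lower in both mutant libraries (Fgf17 at 5.06 and 5.84 against 36.6 and 39.9 TPM), while Olig3, Zic5, Rspo3, Bmp4 and Aldh1a3 sit higher.

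Ventral genes of the neural tube mostly fell, and more dorsal genes rose than fell. Sonic hedgehog from the floor plate is known to induce ventral identities, and Bmp and Wnt signals from the roof plate dorsal ones. On the ventral list 10 of 18 fell and 2 rose (median -0.64), with 2 of the 18 tested through the mutant alone and 1 through the wild type alone. Nkx2-9, a homeobox gene expressed beside the floor plate, had 15.4 and 6.83 TPM in the mutant libraries and 83.2 and 70.1 TPM in the wild-type libraries. All values of the wild type were above those of the mutant, although the mutant libraries differed from each other about 2-fold, and the gene fell by 2.77 ± 0.34 (adjusted p = 0.0061). Nkx6-1 and Nkx2-2, factors of ventral progenitors, had 10.9 and 12.6 against 28.3 and 26.1 TPM and 0.4898 and 0.624 against 3.08 and 2.98 TPM. Of genes known from the floor plate, Foxa2 had 13.3 and 13.8 against 23.4 and 22.4 TPM. The guidance cue Ntn1 (netrin 1) had 35.6 and 34.5 against 67.9 and 61.2 TPM and Spon1 (spondin) had 18.7 and 14.3 against 35.6 and 33.7 TPM. Bulk pieces do not show which tissue these transcripts came from. The pharyngeal and foregut endoderm list had 6 falls and 1 rise among 18 (median -0.14). Shh, the ligand, moved less, with 23.4 and 18.8 against 27.8 and 31.1 TPM (fell by 0.47 ± 0.13, adjusted p = 0.045). Olig1, tested through the mutant alone, went the other way, with 5.26 and 6.01 against 0.444 and 0.627 TPM (rose by 2.11 ± 0.17), as did Sim1. Among Nkx genes as a family 6 of 11 fell and 1 rose (median -0.85), with 2 of the 11 tested through the wild type alone. These falls include Nkx2-9, Nkx6-1, Nkx2-2 and Nkx6-2, already counted on the ventral list, so the family count is not separate from it. On the dorsal list 6 of 18 rose and 2 fell (median 0.29). Olig3, a factor of dorsal progenitors, had 35.8 and 58.6 against 10.96 and 7.15 TPM. Zic5 and Zic2, zinc finger factors of the dorsal tube, rose, with Zic5 at 33.7 and 35.6 against 11.3 and 12.2 TPM and Zic2 at 117 and 135 against 70.5 and 81.6 TPM. Rspo3, an amplifier of Wnt signals, had 9.57 and 14.8 against 2.31 and 3.48 TPM, and the dorsal ligand Wnt3a was among the falls, at 7.25 and 12.5 against 22.5 and 22.9 TPM, as was Pax7 at 11.1 and 12.5 against 22.1 and 23.3 TPM. Without 153 and without 156, 3 and 7 ventral members fell and 5 and 7 dorsal members rose.

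In the forebrain, telencephalon factors mostly fell where they changed, while the called genes of the eye rose. The telencephalon list had 6 falls and 1 rise among 17 genes, at a median of -0.05. Nkx2-1, a factor of hypothalamus and ventral telencephalon that is also expressed in thyroid, had 0.708 and 1.03 against 5.78 and 5.104 TPM. Hesx1, a repressor needed for forebrain and pituitary, had 11.3 and 6.55 against 33.8 and 38.2 TPM. Six3 and Otx1 fell only slightly, by 0.47 and 0.45. The 1 rise was Dmrta2, at 42.2 and 49.97 against 17.3 and 29.96 TPM. From the eye list 4 of 11 genes rose and 0 fell (median 0.30). Aldh1a3, which makes retinoic acid in the eye, had 118 and 145 against 38.997 and 46.9 TPM, and Bmp4, needed for the lens, had 52.2 and 52.4 against 20.8 and 24.5 TPM. Pax6, the general eye factor, differed by 0.31, with 30.3 and 29.7 against 24.5 and 23.6 TPM. In the diencephalon list 5 of 15 (median 0.17) rose, 1 of the 15 having passed the filter through the wild type alone and 2 through the mutant alone. Among the rises were Lhx1, tested on that ground, at 2.91 and 4.21 against 0.3403 and 0.384 TPM and the iroquois gene Irx2 at 64.5 and 87.4 against 37.5 and 34.4 TPM, and 2 members fell. Irx4, of the same iroquois family, fell from 10.9 and 9.69 TPM in the wild type to 1.47 and 1.89 in the mutant. When 153 or 156 was left out, the telencephalon list had 4 and 3 falls, the eye list 3 and 3 rises and the diencephalon list 2 and 3 rises.

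Most proneural factors rose, as did part of the genes of early neurons and synapses. Proneural factors are transcription factors that commit progenitors to become neurons. Of 22 on the list 14 passed the filter on low values, 5 of them through the mutant libraries alone, and 13 rose while 0 fell. Summed over the whole list the level was 293 and 407 against 126 and 139 TPM. Insm1, a zinc finger factor of newborn neurons, had 18.8 and 26.9 TPM in the mutant libraries and 1.93 and 2.42 TPM in the wild-type libraries. Nhlh2 and Nhlh1, factors that appear as neurons leave the cycle, had 6.24 and 11.2 against 0.05904 and 0.116 TPM and 11.3 and 23.6 against 0.0865 and 0.71999 TPM. Neurog1, the proneural factor of cranial ganglia, was already present in the wild type, with 28.3 and 39.3 against 15.6 and 14.4 TPM. Groups did not overlap for Insm1 and Neurog1. For Nhlh2 and Nhlh1, which passed the filter through the mutant libraries alone, the filter fixed this in advance. Library 163 was the higher of the mutant pair for each of these genes. Among early neuron genes 16 of 31 rose and 0 fell (median 0.60), including the RNA-binding protein Elavl3 (13.9 and 18.4 against 1.22 and 1.802 TPM) and Stmn2, a regulator of microtubules (46.2 and 48.9 against 21.4 and 18.98 TPM). Of 16 tubulins (median 0.07) 5 rose and 2 fell. The neuronal forms Tubb3 (321 and 473 against 108 and 117 TPM), Tubb2b (401 and 514 against 126 and 129 TPM) and Tuba1a (631 and 742 against 316 and 318 TPM) rose, whereas Tubb4b fell by 0.30 and Tubg1, of the centrosome, fell by 0.36. Kinesins had 8 rises and 2 falls among 37 (median 0.04), a share under the background. Of these, the motors of axonal transport Kif1a (32.2 and 40.5 against 16.4 and 12.8 TPM), Kif5a (6.81 and 9.89 against 2.47 and 2.55 TPM) and Kif3c (19.99 and 22.05 against 9.33 and 9.75 TPM) rose, while Kif20a, a mitotic motor, fell by 0.36. Genes of the synaptic vesicle were higher at low levels: 14 of 32 (median 0.50), of which 3 passed the filter through the mutant libraries alone, rose and 0 fell, among them Syt1, the calcium sensor of release (2.98 and 3.12 against 0.639 and 0.651 TPM), and Vamp2 (21.2 and 27.7 against 12.9 and 13.9 TPM). Without 153 and without 156 the rises numbered 9 and 8 for proneural factors, 10 and 11 for early neuron genes, 4 and 5 for tubulins, 4 and 7 for kinesins and 3 and 4 for synaptic genes, of which 8 rose without mutant library 163.

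Guidance and Notch genes changed alongside. The Notch pathway holds neighbouring progenitors back when one of them becomes a neuron, and 14 of 35 of its genes (median 0.32) rose while 4 fell. The ligand Dll3 had 10.6 and 16.4 against 2.73 and 3.44 TPM, Dll4, which also acts in arteries, had 15.04 and 17.4 against 5.29 and 5.66 TPM, and the receptor Notch1 had 28.3 and 32.8 against 14.5 and 12.3 TPM. Falls were seen in the target Hes1 (61.8 and 66.1 against 90.5 and 87.7 TPM) and in Lfng, a sugar transferase that modifies the receptor (44.8 and 57.9 against 97.8 and 89.7 TPM). Of 27 guidance genes (median 0.53) 12 rose, for example Cntn2 (Tag1), an adhesion protein of early axons, with 6.32 and 9.89 against 0.928 and 0.751 TPM, and Dcc, the netrin receptor, with 6.82 and 9.23 against 2.01 and 1.93 TPM. The netrin Ntn1 and the receptor Nrp2 were the 2 falls, and 3 members passed the filter through the mutant alone. Eph receptors and ephrins, which set boundaries between compartments, rose in 9 of 20 cases (median 0.30), with Epha8 at 19.12 and 27.4 against 4.07 and 3.08 TPM and Epha3 at 6.78 and 7.13 against 1.07 and 1.58 TPM. Only Efna4 of that family fell. Potassium channel genes had 12 rises and 5 falls among 39 (median 0.36). Of the 39, 6 passed the filter through the mutant alone and 1 through the wild type alone. Kcne3, an accessory subunit, had 34.1 and 35.9 against 7.07 and 7.098 TPM. Quantile normalization turned the counts of this list to 6 rises and 7 falls. In the fits lacking 153 or 156, rises numbered 3 and 4 (Notch), 5 and 4 (guidance), 3 and 3 (Eph) and 4 and 4 (potassium channels). Without mutant library 163 they numbered 9, 7, 5 and 5.

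Progenitor genes of the neural tube moved both ways, with 12 rises and 6 falls among 30 (median 0.17). Vim, the intermediate filament of neuroepithelium, had 519.8 and 687 against 194 and 212 TPM, and Fabp7, a lipid carrier of radial glia, had 243 and 293 against 33.4 and 63.9 TPM. Sox1, a marker of neural progenitors, had 117 and 124 against 65.7 and 71.3 TPM and rose by 0.81 ± 0.08, a change under 2-fold with little spread. Plagl1, an imprinted zinc finger gene that slows proliferation, had 58.9 and 75.5 against 21.4 and 19.9 TPM. Genes known to keep early progenitors young fell, with Lin28b at 85.1 and 71.5 against 130.3 and 121 TPM and Hmga2 at 194 and 193 against 297 and 283 TPM. Rises numbered 7 and 7 without 153 and without 156.

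Neural crest genes fell more often than they rose, while the arch mesenchyme list showed changes in single members and placode genes moved both ways. Crest cells delaminate from the dorsal neural tube, and those of the head build the skeleton of the face and glia of the ganglia. Of 40 crest genes 14 fell and 5 rose (median -0.20), with 1 tested through the mutant alone and 1, Sox8, through the wild type alone. Ets1, a factor of cranial crest, had 28.1 and 30.3 against 59.7 and 58.2 TPM, Cdh6, a cadherin of migrating crest, had 24.7 and 22.03 against 60.5 and 49.1 TPM, and Erbb3, the neuregulin receptor of crest and glia, had 25.1 and 24.3 against 38.4 and 38.4 TPM. Sox8 had 0.613 and 0.827 against 4.27 and 4.22 TPM, and the epithelial-mesenchymal factor Snai1 had 58.9 and 76.8 against 115 and 144 TPM. Pax3 (48.4 and 55.2 against 23.02 and 26.6 TPM), Kit (40.02 and 40.9 against 26.5 and 25.7 TPM), Mycn, Tfap2e and Zeb1 rose. In the first arch and frontonasal list, 5 of 36 fell and 3 rose, a share under the background, and the median was 0.00. Of the 36, 2 were tested through the wild type alone. Alx1, a homeobox gene of the frontonasal mesenchyme, had 4.26 and 4.61 against 8.39 and 11.7 TPM, Dlx2 had 9.19 and 17.3 against 31.96 and 36.7 TPM, and Tshz1 had 20.1 and 27.8 against 9.698 and 8.89 TPM. Of receptors for crest guidance, Cxcr4, a chemokine receptor, had 139 and 136 against 87.4 and 85.9 TPM. Ret, a receptor of neurotrophic factors, had 0.699 and 0.961 against 5.56 and 3.66 TPM. It was tested through the wild type alone, so the filter fixed its direction. Of 27 placode genes (median 0.03) 5 rose, including the preplacodal factor Foxi3 (42.2 and 59.1 against 17.98 and 13.2 TPM), and 7 fell, including Six4 (8.2 and 9.15 against 14.2 and 13.5 TPM). Of the 27, 2 were tested through the wild type alone. Cranial sensory and motor neuron factors had 7 rises and 3 falls among 18 (median 0.60). Of the 18, 3 were tested through the mutant alone and 2 through the wild type alone. Pou4f2 had 4.27 and 6.58 against 0 and 0.0326 TPM and Tlx3 had 4.92 and 8.63 against 0.765 and 0.477 TPM. In head mesoderm 6 of 18 rose and 1 fell (median 0.09), with 1 of the 18 tested through the wild type alone. Among the rises were Tcf21 (19.95 and 25.95 against 12.6 and 9.64 TPM) and Msc (5.61 and 9.51 against 2.34 and 3.24 TPM), both factors of head muscle precursors. The direction of this list depended on mutant library 163, without which its median was -0.05. Its summed level was lower in both mutant libraries, at 567 and 712 against 739 and 725 TPM. Without 153 and without 156 crest falls numbered 7 and 8 and head mesoderm rises 2 and 0, and without 163 the head mesoderm list had 2 rises and the first arch list 9 falls.

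Most targets of the hypoxia response rose, at low and at high levels. Low oxygen stabilises Hif1a and Epas1, which bind the core ACGTG in promoters and enhancers, and prolyl hydroxylases (Egln) mark Hif proteins for destruction when oxygen is present. Of 52 targets outside glycolysis 35 rose and 3 fell (median 0.84), and 2 of the 52 passed the filter through the mutant alone. Ddit4 (Redd1), an inhibitor of mTOR, had 959 and 1478 TPM in the mutant libraries and 72.3 and 98.4 TPM in the wild-type libraries and rose by 3.80 ± 0.24 (adjusted p = 0.0018). Egln3 had 115 and 167 against 32.6 and 43.9 TPM, Bnip3, a mitophagy receptor, had 82.8 and 100.4 against 17.8 and 27.4 TPM, and Ppp1r3c, a glycogen targeting subunit, had 22.5 and 30.1 against 3.599 and 3.102 TPM. Vegfa, the main angiogenic ligand, changed less, with 61.9 and 72.2 against 37.5 and 35.1 TPM. Of the factors themselves, Hif1a had 117 and 108 against 155 and 141 TPM and fell by 0.39 ± 0.08, while Epas1, at low level, rose by 0.85 ± 0.16. In the glycolysis list 18 of 40 rose and 2 fell (median 0.44), and 3 of the 40 passed the filter through the mutant alone. Pgm1, which feeds glucose from glycogen into the pathway, had 307 and 407 against 65.7 and 87.7 TPM, Aldoc had 28.1 and 37.1 against 4.54 and 4.06 TPM and Hk1, a hexokinase, had 27.5 and 33.8 against 13.7 and 15.3 TPM. The lactate transporter Slc16a1 was one of the falls, at 208 and 194 against 303 and 269 TPM. Rises numbered 28 and 29 of hypoxia targets and 8 and 8 of glycolysis genes without 153 and without 156.

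Promoter sequence is shown because the Hif core was found in part of the promoters of both lists. Read on both strands in the window from 250 bases before to 50 after each start (RefSeq promoters, GRCm38.p6), the core ACGTG, which also occurs inside CACGTG, was in 47.2% of 53 promoters of hypoxia targets and 47.5% of 59 promoters of glycolysis genes, against 19.6% of all 32851 promoters. For members that were called it was in 14 of 34 and 12 of 24 promoters respectively. Among all genes grouped by call it was in 23.1% of promoters of genes that rose, 28.2% of those that fell and 25.2% of those not called. Of 53 members that rose, 19 had the core far enough inside the part before the start to show 20 bases on each side, and the 6 with the largest rise are printed here 5′ to 3′, with the core and its mirror reading in capitals. A match of these letters is a description of the sequence.
Ddit4 (chr10:59951933-59951977, minus strand): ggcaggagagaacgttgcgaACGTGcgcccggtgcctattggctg
Ppp1r3c (chr19:36736683-36736727, minus strand): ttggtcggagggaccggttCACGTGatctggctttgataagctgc
Pgm1 (chr4:99929250-99929294, plus strand): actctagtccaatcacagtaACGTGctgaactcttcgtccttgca
Bnip3 (chr7:138909589-138909633, minus strand): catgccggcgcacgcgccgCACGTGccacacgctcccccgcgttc
Egln3 (chr12:54204079-54204123, minus strand): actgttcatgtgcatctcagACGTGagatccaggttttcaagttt
Rora (chr9:68653579-68653623, plus strand): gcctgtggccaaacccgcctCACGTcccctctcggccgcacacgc
Ppp1r3c and Bnip3 carry the palindrome CACGTG, and Rora, an orphan nuclear receptor at 5.38 and 5.29 against 0.938 and 1.02 TPM, has the core on the other strand. The element that Gcnf is known to bind, TCAAGGTCA, was in 0.42% of all promoters on either strand. It was found in the window of 7 of 2269 promoters of genes that rose, 4 of 2060 of genes that fell and 24 of 9125 of genes not called.

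Most genes of cholesterol synthesis rose, as did part of those of fatty acid synthesis. These pathways share Srebf factors, which the cell activates when sterols are short. Of 33 genes of cholesterol synthesis and uptake 23 rose and 0 fell (median 0.80). Hmgcs1, an early enzyme of the pathway, had 596 and 404 TPM in the mutant libraries and 162 and 197 TPM in the wild-type libraries, library 159 being the higher of the mutant pair and both wild-type libraries lying below. The late enzymes Tm7sf2 (21.9 and 20.2 against 5.59 and 7.16 TPM) and Dhcr7 (114 and 94.7 against 44.97 and 51.4 TPM) and the sterol carrier Stard4 (107 and 70.1 against 29.5 and 32.6 TPM) shared the direction. Srebf2, the sterol-regulated factor, rose by 0.73 ± 0.06 (adjusted p = 0.0035). In fatty acid synthesis and desaturation 13 of 28 rose and 2 fell (median 0.41), with the desaturases Scd1 at 362 and 245 against 104 and 132 TPM and Scd2 at 1745 and 1382 against 786 and 848 TPM and the elongase Elovl6 at 142 and 109.8 against 59.9 and 73.6 TPM. In the list of fatty acid oxidation and lipid droplet genes 12 of 35 rose and 2 fell (median 0.25). Of the 35, 2 passed the filter through the mutant alone, Cidea among them. Cidea, a lipid droplet protein, was near 0 in the wild type, with 28.1 and 37.8 against 0 and 0.0936 TPM. Acadl, a mitochondrial acyl-CoA dehydrogenase, had 89.8 and 98.9 against 18.8 and 16.7 TPM, and Etfa, which takes up its electrons, had 155 and 158 against 61.1 and 67.4 TPM. The binding proteins Fabp3 (33.4 and 29.4 against 1.68 and 1.902 TPM) and Fabp7 rose and Fabp5 fell by 0.37. Oxct1, the enzyme that lets tissue use ketone bodies, had 196 and 190.2 against 25.95 and 22.6 TPM. With 153 or 156 left out, rises numbered 12 and 15 (cholesterol), 1 and 5 (fatty acid synthesis) and 5 and 6 (oxidation).

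Metallothioneins and many glutathione S-transferases rose. Metallothioneins bind zinc and copper and are induced by metals, glucocorticoids and hypoxia. All 3 tested genes rose, a family singled out after its values were seen, with Mt1 at 767 and 598 against 49.4 and 68.4 TPM, Mt2 at 352 and 202 against 20.3 and 29.5 TPM and Mt3 at 6.98 and 7.67 against 2 and 2.64 TPM. Of 16 glutathione S-transferases (median 0.66) 11 rose and 2 fell. Gstm7 had 31.9 and 35.8 against 1.33 and 2.48 TPM, Gstk1 had 48.1 and 65.1 against 8.85 and 9.02 TPM and Mgst3 had 140.0 and 99.7 against 26.7 and 37.1 TPM, while Gstp1 had 75.9 and 79.99 against 113 and 114 TPM. The Gstm and Gstt genes are near copies of each other, so reads may have been split between them. From the cytochrome P450 family 9 of 19 rose and 0 fell (median 0.55), but 6 of the 19 passed the filter through the mutant libraries alone, and summed over the family the level was 282 and 348 against 301 and 221 TPM, with overlapping groups. Cyp26a1, which degrades retinoic acid, had 63.2 and 86.7 against 21.99 and 20.4 TPM. Aldehyde dehydrogenases had 6 rises and 1 fall among 15 (median 0.24), and 1 of the 15, Aldh1l1, passed the filter through the mutant alone. Aldh1l1, a folate enzyme also known from astrocytes, had 6.84 and 6.799 against 0.165 and 0.3004 TPM. Aldh1a2, the main source of retinoic acid in the trunk, was the fall, at 17.6 and 9.01 against 34.2 and 38.8 TPM. The list of retinoic acid genes had 3 rises and 5 falls among 25 (median -0.04), near the background, the falls including the retinol receptor Stra6 at 6.99 and 7.84 against 18.1 and 15.003 TPM and the dehydrogenase Rdh10 at 12.2 and 13.01 against 22.2 and 21.2 TPM. Rises without 153 and without 156 numbered 3 and 3 (metallothioneins), 6 and 6 (transferases), 3 and 5 (P450) and 3 and 5 (dehydrogenases).

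Part of the amino acid and integrated stress list rose, while many chaperones fell. The integrated stress response acts through Atf4, which induces genes of amino acid supply. On its list 13 of 34 rose and 1 fell (median 0.45). Trib3, a pseudokinase, had 47.9 and 55.9 against 3.01 and 5.697 TPM and Chac1, which degrades glutathione, had 24.3 and 58.3 against 2.08 and 4.33 TPM. Chaperones of the endoplasmic reticulum, by contrast, had 18 falls and 0 rises among 32 (median -0.40). Hspa5 (BiP), the main chaperone of that compartment, had 675 and 678 TPM in the mutant libraries and 1238 and 1143 TPM in the wild-type libraries and fell by 0.81 ± 0.08 (adjusted p = 0.0039). Hyou1, its exchange factor, had 91.02 and 92.3 against 192 and 173 TPM, and Creld2 had 108 and 113 against 209 and 218 TPM. The spread within each genotype was small against the gap between them for all 3 genes. Heat shock proteins of the cytosol and mitochondria mostly moved the same way, 14 down and 4 up among 27 (median -0.36). Median levels were 113 TPM for the endoplasmic reticulum list and 112 TPM for heat shock proteins. Of all genes of at least 100 TPM, 725 of 2082 fell (median -0.16). Hsph1 had 87.3 and 81.1 against 185 and 178 TPM, Hspa8, the constitutive Hsp70, had 347 and 347 against 714 and 657 TPM, and the mitochondrial chaperonin Hspd1 had 554 and 487 against 939 and 946 TPM. Hspb1, a small heat shock protein, moved against them, at 10.05 and 12.2 against 0.517 and 1.72 TPM. Without 153 and without 156 falls numbered 6 and 6 for the endoplasmic reticulum and 5 and 7 for heat shock proteins, and stress genes had 6 and 6 rises.

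**Figure D3:**
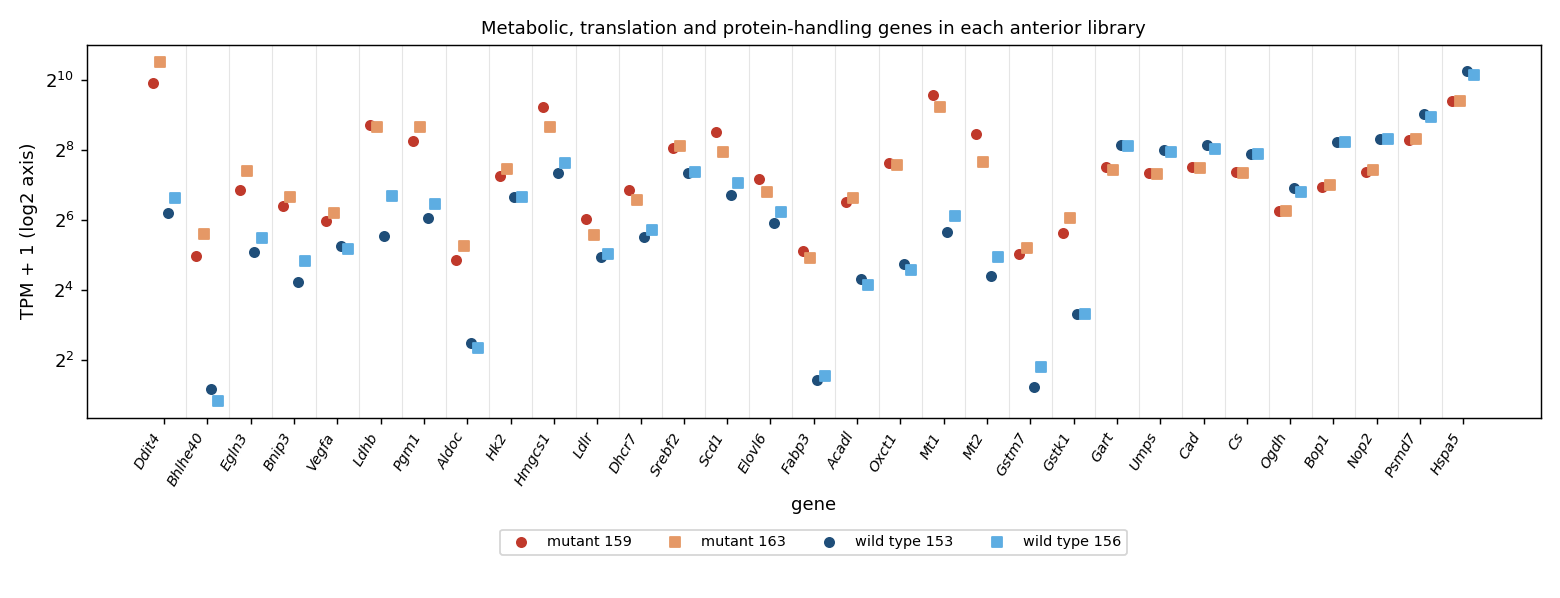
TPM + 1 (log2 axis) of genes of hypoxia, sterol synthesis, detoxification, chaperones, ribosome assembly and the proteasome in the 4 anterior libraries, with 1 point a library. Rises span wide ranges, as in Ddit4, while Hspa5 shows a narrow fall with the libraries of each genotype close together.

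Genes for making ribosomes fell by small and even amounts. Ribosomal RNA is transcribed and processed in the nucleolus by a large set of assembly factors. Among 62 genes taken by symbol (a family singled out after values were seen), 52 fell and 1 rose, with a median of -0.51. Nop2, a methylase of the large subunit RNA, had 166 and 172 TPM in the mutant libraries and 316 and 317 TPM in the wild-type libraries, with both pairs of libraries close together. Rrp12, an export factor of ribosomal subunits, had 64.9 and 68.1 against 135 and 131 TPM, and Nol10 had 94.8 and 87.02 against 172 and 172 TPM. Bysl, of the small subunit, fell by 1.00 ± 0.06 (adjusted p = 0.0018) and Grwd1, a chaperone of a ribosomal protein, fell by 0.86 ± 0.06, both outside that family. Myc, which activates many such genes, had 80.8 and 78.3 against 149 and 163 TPM. Proteins of the cytosolic ribosome themselves moved little, with 8 rises and 16 falls among 81 and a median of 0.00. Their values are uncertain because reads can be shared with many processed pseudogenes. Mitochondrial ribosomal proteins had 43 falls and 0 rises among 77 (median -0.29), and Timm and Tomm genes of mitochondrial import had 12 falls among 22 (median -0.29). Of initiation factors 28 of 49 fell and 3 rose (median -0.32). Median levels were 180 TPM for this list and 189 TPM for cytosolic tRNA synthetases. Of all genes of at least 100 TPM, 725 of 2082 fell (median -0.16). Eif4a2, a helicase subunit, rose to 91.3 and 80.1 TPM from 44.7 and 44.03, while Eif5b, for example, fell by 0.42. Cytosolic tRNA synthetases had 11 falls among 20 (median -0.31), led by Vars (255 and 285 against 437 and 436 TPM), and 1 rise, Qars. Falls numbered 19 and 22 (assembly), 3 and 5 (mitochondrial ribosome), 1 and 4 (initiation) and 0 and 1 (synthetases) without 153 and without 156. Under quantile normalization 16 initiation factors and 6 synthetases fell, and 15 cytosolic ribosomal proteins rose.

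Most proteasome genes and part of the splicing and nuclear pore genes fell by small amounts. No member of the Psm family rose and 27 of 35 fell, at a median of -0.41. Psmc4, an ATPase of the cap, had 389.9 and 409 against 548 and 558 TPM, and Psma4, of the core, had 192 and 189.7 against 272 and 261 TPM. The summed level of the family was 8872 and 8761 against 11700.1 and 11634 TPM, so that the genotypes did not overlap. Of 32 splicing genes (median -0.27) 15 fell, among them Snrpa1 (113 and 112 against 193 and 191 TPM) and Srsf6 (299 and 285 against 444 and 456 TPM), and none rose. The splicing list had a median level of 161 TPM and is to be read against all genes of at least 100 TPM, whose falls are given below for the cycle. Nucleoporins had 11 falls among 19 (median -0.30), with Nup93 at 122 and 113 against 177 and 181 TPM. Of enzymes of nucleotide synthesis 21 of 29 fell and 2 rose (median -0.38), the falls including Ctps, which makes CTP, at 219.6 and 201 against 313 and 295 TPM. In the tricarboxylic acid cycle 11 of 31 fell and 3 rose (median -0.14). With a median level of 127 TPM, this list was near all genes of at least 100 TPM, of which 725 of 2082 fell (median -0.16). Ogdh had 75.7 and 75.03 against 119.7 and 110.0 TPM and the citrate synthase Cs had 163 and 163 against 235 and 235 TPM, against a rise of the cytosolic Idh1 to 373 and 297 TPM from 89.6 and 104. Glycine and one-carbon enzymes had 10 falls and 2 rises among 30 (median -0.17), with Gldc, the glycine decarboxylase, at 53.3 and 43.5 against 91.5 and 93.7 TPM and Mat2a, which makes S-adenosylmethionine, at 202 and 174 against 354 and 317 TPM. Far fewer of these genes were called with 1 wild-type library. When 153 or 156 was left out, falls numbered 1 and 3 (proteasome), 1 and 2 (splicing), 0 and 0 (pores), 2 and 4 (nucleotides), 0 and 1 (cycle) and 3 and 3 (one-carbon), while the medians of these lists were negative under median-of-ratios, quantile and rescaled values too. Quantile normalization left 7 falls of splicing genes and 7 of nucleoporins, and turned the counts for the cycle to 5 rises and 6 falls.

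**Figure D4:**
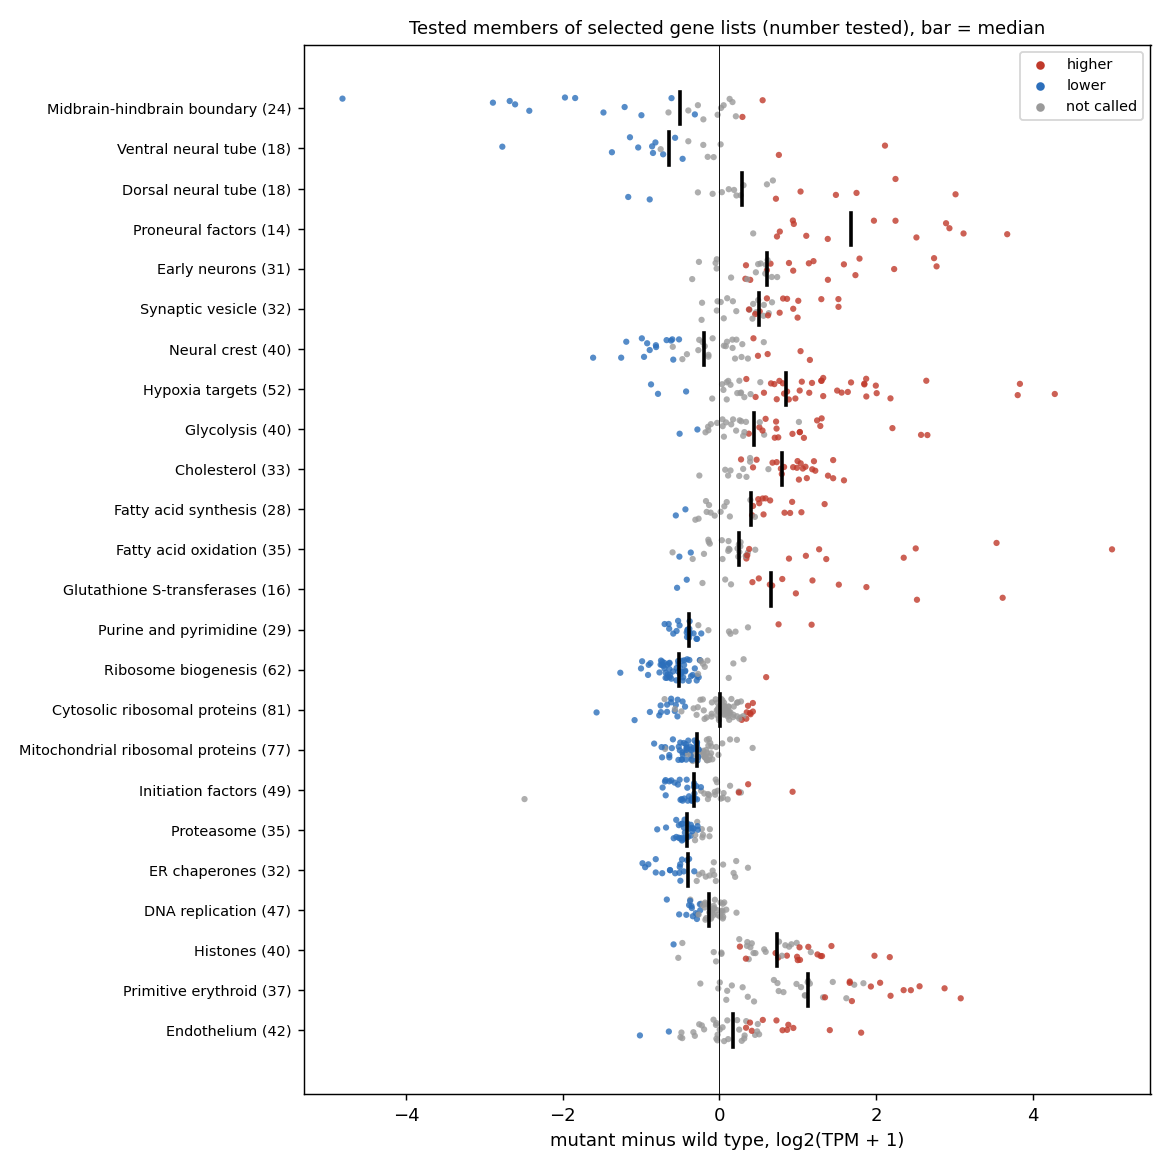
Difference between mutant and wild type (horizontal axis, log2 of TPM + 1) for every tested member of 24 gene lists, with 1 point a gene, coloured by whether it rose, fell or was not called, and a black bar at the median of the list; vertical offsets only separate the points. Hypoxia and cholesterol genes lie mostly to the right, at medians of 0.84 and 0.80, and ribosome biogenesis and proteasome genes form narrow groups to the left, at -0.51 and -0.41.

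**Figure D5:**
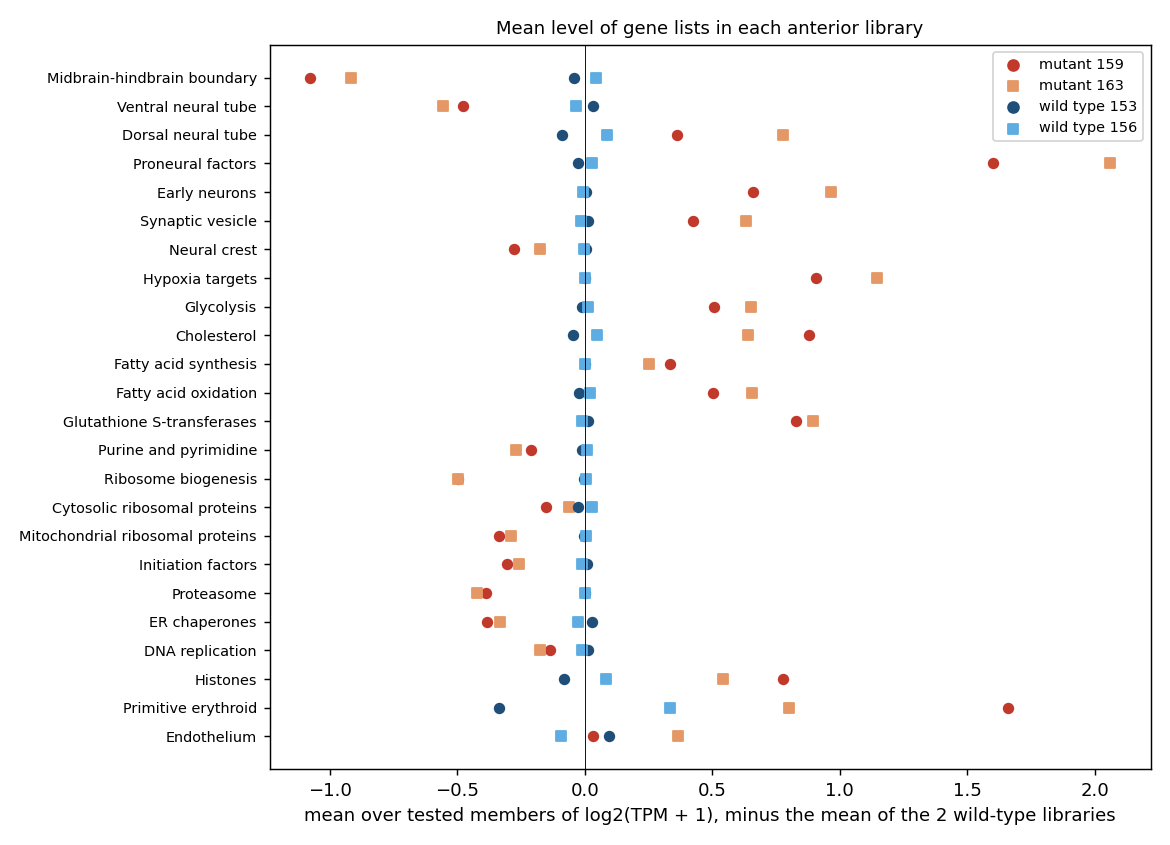
Mean log2 of TPM + 1 of each list's tested members in each anterior library, as the difference from the mean of the 2 wild-type libraries, with 1 point a library. Neuronal and hypoxia lists lie higher in library 163 than in 159, cholesterol and erythroid lists higher in 159 than in 163, and ribosome biogenesis and proteasome lists close together in both.

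Cell cycle genes of the first gap phase changed in both directions. The list of cyclins, inhibitors and pocket proteins of that phase had 14 rises and 5 falls among 39 (median 0.26). Cdkn1b (p27), an inhibitor of cyclin kinases, had 76.1 and 77.03 TPM in the mutant libraries and 26.2 and 30.2 TPM in the wild-type libraries and rose by 1.41 ± 0.09 (adjusted p = 0.0018). Gadd45g had 54.6 and 77.7 against 15.8 and 15.6 TPM and Ccng2 had 38.3 and 36.4 against 12.6 and 11.47 TPM. The cyclins that drive entry into the cycle were lower, with Ccne1 at 114 and 100.3 against 258 and 267 TPM and Ccnd1 at 132 and 127 against 256 and 268 TPM. DNA replication genes fell slightly in 13 of 47 cases (median -0.13) and rose in none, with 27.7% called against 29.5% of all genes. Mcm5 was at 488 and 474 against 628 and 632 TPM, and with quantile normalization 5 members of this list fell. Of mitosis genes 11 of 52 fell and 3 rose (median -0.06), a share under the background, and quantile normalization left 2 falls. p53 targets had 12 rises and 5 falls among 33 (median 0.26). Plk3, a stress kinase, had 27.1 and 35.7 against 5.18 and 6.89 TPM, Trp53inp1 had 27.99 and 23.04 against 8.51 and 8.35 TPM and Pmaip1 (Noxa), which promotes cell death, had 21.2 and 19.2 against 8.82 and 8.71 TPM, while Trp53 itself fell by 0.32. Without 153 and without 156 the rises numbered 5 and 4 for the first gap phase and 4 and 6 for p53 targets, and 0 and 0 replication genes fell.

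Histone and chromatin genes had a few larger changes. Of 40 histone genes 16 rose and 1 fell (median 0.73). The linker histone H1f0, whose transcripts carry a poly-A tail and which marks cells leaving the cycle, had 942 and 1037 against 477 and 493 TPM. Hist2h2be had 20.6 and 22.4 against 3.296 and 4.78 TPM and Hist1h2bc had 19.3 and 22.2 against 7.101 and 7.04 TPM. Most genes of this kind lack the tail that the library preparation selects, and they are close copies of each other, so their levels are uncertain. H2afz, a variant histone of active promoters, was the fall, at 55.2 and 48.96 against 80.97 and 76.1 TPM. Among Polycomb genes Cbx7, a reader of the repressive mark, had 18.5 and 20.7 against 4.75 and 7.11 TPM. Its list had 6 rises and 5 falls among 31 (median 0.15), with 35.5% called against 29.5% of all genes. Lysine demethylases had 5 rises among 16 (median 0.26), a share called of 31.2%, near that of all genes. Kdm7a was at 40.3 and 38.2 against 16.3 and 14.7 TPM and the hypoxia target Kdm3a at 91.003 and 102 against 47.1 and 46.7 TPM. In the fits lacking 153 or 156, 7 and 9 histone genes and 2 and 2 demethylases rose.

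In the signalling pathways, single ligands, antagonists and targets changed in both directions. Of Wnt ligands 4 rose and 4 fell among 16 (median 0.09), and 1 of the 16, Wnt8a, passed the filter through the mutant alone. Wnt8a had 3.86 and 7.19 against 0.0611 and 0.1195 TPM and Wnt7a 7.93 and 6.47 against 1.14 and 1.45 TPM, while Wnt7b had 13.9 and 19.6 against 38.1 and 38.97 TPM. In the list of antagonists and targets, 9 rose and 10 fell of 47 (median -0.09), with 2 of the 47 tested through the wild type alone. Sfrp5, a secreted antagonist, had 1.16 and 1.18 against 10.9 and 7.96 TPM, Apcdd1, an inhibitor at the membrane and a target, had 22.1 and 19.5 against 58.9 and 63.5 TPM, and Porcn, which lipidates Wnt ligands, had 21.1 and 28.3 against 8.31 and 8.73 TPM. Bmp and Tgf-beta genes had 11 rises and 3 falls among 52 (median 0.20), a share under the background. Wfikkn1, an inhibitor of myostatin and Gdf11, was the largest fall, at 4.799 and 6.36 against 53.4 and 54.8 TPM. Id4 had 17.8 and 20.5 against 8.67 and 7.402 TPM and Id1, a common Bmp target, had 301 and 397 against 467 and 523 TPM. In the Hedgehog list Boc, a co-receptor of Shh, had 81.9 and 105 against 35.5 and 45.3 TPM, and 3 rose and 3 fell of 21 (median -0.07), near the background. The insulin-like growth factor list had 8 rises and 6 falls among 36 (median 0.01). Igfbp2 and Igfbp3, binding proteins of the growth factors, had 1132 and 1824 against 483 and 492 TPM and 133 and 149 against 56.4 and 54.9 TPM, while the kinase Akt1 had 137 and 169 against 251 and 233 TPM. Without 153 and without 156 rises numbered 5 and 3 (Bmp and Tgf-beta), 3 and 5 (Wnt antagonists and targets) and 5 and 4 (insulin-like).

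Primitive red cell genes were higher in both mutant libraries and uneven among libraries. These cells arise in the yolk sac, carry embryonic globins and circulate at this stage. Of 37 erythroid genes 12 rose and 0 fell (median 1.13). Alas2, the erythroid enzyme that starts heme synthesis, had 166 and 71.1 TPM in the mutant libraries and 11.7 and 26.7 TPM in the wild-type libraries. Library 159 stood highest and wild-type library 153 lowest, a pattern that the beta-like globin Hbb-bh1 also had, at 19193 and 8848 against 1954 and 4219 TPM. The alpha globins Hba-a1 and Hba-a2 both rose, but as near copies they can swap reads. Of heme genes 6 of 18 (median 0.42) rose, with 33.3% called against 29.5% of all genes. Among them was Hmox1, which breaks heme down, at 66.97 and 80.6 against 40.9 and 43.8 TPM. Megakaryocyte genes had 6 rises among 12 (median 0.77), 3 of these 12 having passed the filter through the mutant alone, with Pf4, a platelet chemokine, at 2.79 and 11.04 against 0.296 and 0 TPM and Itgb3 at 7.09 and 5.83 against 1.68 and 2.42 TPM. Among endothelial genes 11 of 42 rose and 2 fell (median 0.17), a share called of 31.0%, near the 29.5% of all genes. Robo4 had 6.64 and 10.7 against 1.29 and 2.18 TPM, Cldn5, a tight junction protein of vessels, had 113 and 145 against 64.5 and 74.6 TPM, and Aplnr, the apelin receptor, had 17.8 and 26.7 against 50.95 and 39.8 TPM. Over their lists the summed level of endothelial genes was 1297 and 1656 against 1327 and 1214 TPM, against 45689 and 26662 against 4896 and 10754 TPM for erythroid genes. How far a different amount of blood in the pieces accounts for these values was not tested. With 153 or 156 left out, rises numbered 3 and 12 (erythroid), 0 and 4 (heme), 1 and 3 (megakaryocyte) and 3 and 4 (endothelial). The mutant libraries mattered as well, since the median of erythroid genes was 1.73 without 163 and 0.68 without 159. For heme genes the medians were 0.61 and 0.22 respectively. On rescaled values 6 erythroid genes rose, but the globin genes were left out of that test.

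Pluripotency genes did not move as a block. Of 47 on the list 31 passed the filter on low values, 4 of them through the mutant alone, and 11 rose and 7 fell. Beside Pou5f1 and Nanog, Nr0b1 (Dax1), a nuclear receptor of the pluripotent network on the X chromosome, had 19.6 and 18.9 against 0.413 and 0.808 TPM, and Klf5 had 5.99 and 6.96 against 2.05 and 1.91 TPM. Dnmt3b, the DNA methylase of the epiblast, was lower, at 105 and 91.4 against 153 and 151 TPM, as was Lin28a at 881 and 747 against 1154 and 1226 TPM. Among Lin28 and let-7 genes 13 of 29 fell and 4 rose (median -0.21). Dgcr8, the partner of Drosha in microRNA processing, had 16.2 and 17.6 against 37.4 and 34.5 TPM and Hmga1 had 468 and 513 against 772 and 776 TPM. Imprinted genes had 7 rises and 4 falls among 41 (median 0.07), a share under the background. Cdkn1c, a cyclin kinase inhibitor, had 147 and 177 against 115 and 95.6 TPM, and Mest and Peg10 had 1027 and 1048 against 1739.8 and 1731 TPM and 222 and 231 against 374 and 364 TPM. Of the Pou family 5 of 9 rose and none fell, but 2 of them passed the filter through the mutant alone, Pou2f2 among these, at 3.89 and 5.32 against 0.698 and 0.494 TPM. Rises numbered 7 and 8 for pluripotency and 2 and 2 for imprinted genes without 153 and without 156, and falls of the Lin28 list 1 and 3. With the filter at 5 TPM the median of the pluripotency list was -0.01 in place of 0.24.

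Some abundant genes changed by less than 2-fold with little spread. Mkrn1, a ubiquitin ligase, had 97.7 and 103 against 48.9 and 52.97 TPM, and Gpx4, which protects membrane lipids from oxidation, had 131 and 149 against 73.03 and 71.9 TPM. Por, the electron donor of P450 enzymes, rose by 0.83 ± 0.08, and Gas5, a host gene of small nucleolar RNAs, rose by 0.76 ± 0.07. Gprc5b, a receptor of neural tissue, had 76.2 and 84.8 against 38.6 and 42.3 TPM, and Rnd3, a small GTP-binding protein of the cytoskeleton, had 132 and 137 against 85.2 and 83.7 TPM. Ppm1g, a phosphatase of splicing factors, had 232 and 225 against 401 and 403 TPM and fell by 0.82 ± 0.06. Elac2, which trims tRNA ends, and Wdr46, of the nucleolus, fell by 0.89 and 0.95. These genes were taken by the smallest p among changes below 2-fold at a mean of at least 50 TPM, so their small p is a description.

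Whether the genotype difference itself differed between anterior and posterior pieces was tested in a fit of all 8 libraries. It did in 156 of 15447 genes (1.01%), with the anterior difference above the posterior one in 64 and below in 92. Of these, 60 of the 64 also rose in the anterior pieces and 62 of the 92 fell. The anterior difference is part of the tested value, so such a match is partly built in. En1 was at 55.1 and 63.3 TPM in the wild-type anterior pieces and at 0.304 and 1.003 against 0.307 and 0.0813 TPM in the posterior ones, where it is nearly silent, so its fall had no counterpart there (difference of differences -3.12 ± 0.30, adjusted p = 0.0046). Fgf17 was present at both ends, with 46.1 and 53.9 against 63.7 and 51.5 TPM in the posterior pieces, and its fall was anterior (-2.41 ± 0.19, adjusted p = 0.002). Il17rd had 41.2 and 24.7 against 47.3 and 41.7 TPM in the posterior pieces and Tmem119, a gene of bone-forming mesenchyme and of microglia, had 71.4 and 91.3 against 51.5 and 42.8 TPM. Myc had 126 and 117 against 109.9 and 105 TPM, so its anterior fall was not seen there (-1.14 ± 0.13, adjusted p = 0.0074). Among the rises, Insm1 had 5.77 and 4.099 against 1.69 and 1.77 TPM and a smaller posterior difference (1.78 ± 0.29, adjusted p = 0.028), as had Neurod4, at 5.25 and 4.45 against 0.804 and 0.8505 TPM. The largest rises of metabolism gave no such difference. Ddit4 was at 1062 and 926 against 78.7 and 113 TPM in the posterior pieces, Mt1 at 477 and 359 against 77.2 and 63.4 TPM, Cidea at 32.8 and 31.7 against 0.121 and 0.319 TPM and Oxct1 at 222 and 227 against 27.3 and 26.6 TPM, with adjusted p values of the difference of differences of 0.66, 0.17, 0.76 and 0.9, which do not show that the effects were equal. Hspa5 had 758 and 845 against 1208 and 1069.6 TPM and Nop2 had 183 and 178 against 247 and 223 TPM there, with differences of -0.31 ± 0.15 and -0.52 ± 0.13. Of the 60 genes with the largest anterior changes, 22 passed this test. They were chosen by the anterior difference that enters the test, a choice that favours passing, so this share is a description.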

How the data were processed

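Poly-A selected, non-stranded libraries of 8 embryo pieces were sequenced, and the authors deposited a table of TPM per gene identifier. Per the submitters' processing notes, CASAVA 1.8.2, STAR and the mm10 build were used. Annotation and counting tool remain unnamed in these sources. Names came from the GENCODE M21 annotation, which matched 55240 of 55421 identifiers. Reads in genes were recovered as whole multiples of the smallest TPM step of a gene's length, with 98.8% of values within 0.01 reads of a whole number. TPM keeps the relative level only, so 3 reads on a transcript of 1 kb stand for 0.302 to 0.336 TPM in these 4 libraries, which covers counting error only.

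Genes with at least 1 TPM in at least 2 of the 4 anterior libraries entered limma 3.58.1 in R 4.3.3 (log2(TPM + 1), mean-variance trend, Benjamini-Hochberg over 15447 genes, threshold 0.05). The residual degrees of freedom were 2 and the prior ones 3.47. The scale understates changes of low genes. Alternatives were pseudocounts of 0.1 and 0.5, no filter, a filter at 5 TPM, median-of-ratios, quantile and rescaled values, all 8 libraries, no trend, a robust prior and each library left out. The method was tested on simulated data.

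The 71 gene lists and 72 symbol families were chosen with earlier results of these data known, and 3 more families after their values were seen. They support no test of their own. Genes were named by largest change without overlap (30 each way), smallest p among changes below 2-fold (15 each way), smallest p within a list (up to 6) and members against the majority of their list. A few members outside this rule were picked after seeing their values. Results for some genes are not reported here.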

Additional observations from a re-analysis of the deposited data

Results flagged for a closer look

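Among the 60 genes with the largest anterior changes, 22 had a genotype difference that differed between anterior and posterior pieces by the test of the difference itself (limma over all 8 libraries, adjusted p under 0.05), and 20 of them are given here. Because the 60 were chosen by the anterior difference, which enters this test, the choice favours passing. Values are the anterior difference minus the posterior one on the scale of log2(TPM + 1), with 2 libraries in each of the 4 groups.

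Brain patterning genes make up much of the negative side. En2 had -4.75, En1 -3.12, Fgf17 -2.41, Pax5 -2.15, Flrt1 -2.34, Il17rd -1.51, Hesx1 -2.03, Irx4 -1.96 and Dmrta1 -1.53. Posterior levels of En2, at 0.414 and 0.485 against 0.342 and 0.703 TPM, were near 0 in both genotypes, so no posterior fall could have been measured for it. Genes of other tissues were Tmem119 at -2.92, the chemokine Ccl6 at -2.46, the caudal gene Cdx1 at -2.17, the thyrotropin-releasing hormone gene Trh at -2.04 and the carbonic anhydrase Car4 at -2.003. Cdx1 had 126 and 107 against 89.1 and 75.8 TPM in the posterior pieces, where the mutant libraries were the higher ones.

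On the positive side the somatostatin gene Sst had 4.65. Its anterior values were 13.1 and 49.9 against 0 and 0.289 TPM, with library 163 far above 159, and its posterior values 1.57 and 4.13 against 5.22 and 1.38 TPM. Neuronal genes Insm1 and Neurod4 had 1.78 and 1.26, the pluripotency genes Nanog and Pou5f1 1.62 and 1.47, and Esm1, a gene of endothelial tip cells, 1.40. Anterior values of Esm1 were 21.5 and 26.1 against 1.93 and 1.79 TPM and posterior values 13.1 and 10.04 against 3.205 and 2.48 TPM.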

How the results depend on the processing

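No paired analysis was possible because the mutant and wild-type groups share no replicate number. Anterior and posterior pieces of the same number deviated together at correlations of 0.153 for the mutant pairs and 0.032 for the wild-type pairs, and a fit of the difference between regions with a replicate block on the shared number passed 25 of the 60 named genes in place of 22 (281 genes over the whole table in place of 156). Median-of-ratios scaling gave 15 of the 60 and 113 over the table. The genotype test without a filter on low values, over 29963 genes, passed 2049 genes, 1028 higher and 1021 lower. With no mean-variance trend 1453 genes were lower. Leaving out 1 library gave between 864 and 4641 genes in all, between 613 and 2492 higher and between 251 and 2238 lower. The lowest values came without wild-type library 153, and without 156 there were 1221. Every other setting left the 3 counts within 1.5 times of 4562, 2372 and 2190. Of 243 genes named in the text, 74 no longer passed the test without library 153, 53 without library 156, 10 without 163, 8 without 159 and 47 with no filter on low values. No named gene changed direction under any of these settings.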
